A study of Mus musculus with 30 samples.

Results

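*Pou5f1*, *Nanog*, *Sall4*, *Utf1* and *Dppa4* are 5 genes of the core pluripotency network. They were chosen by name, with earlier results of these data known. Every probe set that the array's annotation pairs with 1 of them was taken. They are 5 of the 18194 genes, and their 8 probe sets are among the 45101 probe sets of the array. The cells were 30 single primordial germ cells (PGCs), the founders of the germ line, picked at E7.25-E7.5 from the base of the allantois of C57BL/6 embryos from crosses of Prdm14+/- parents. 4 cells were labelled *Prdm14* KO (-/-), 13 were labelled *Prdm14* heterozygous (+/-) and 13 were labelled wild type (WT, +/+). The cDNA of each cell was amplified and hybridised to 1 Affymetrix Mouse Genome 430 2.0 array, and a cell was kept as a PGC when a PCR for *Prdm1* was positive, so that *Prdm1* in all cells follows from how they were selected.

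The labels name no embryo, so cells of 1 label may be littermates or come from the same embryo, each label counts as 1 sample, and the differences below carry the spread between cells but no test. The array codes in the labels fall into 3 sets, called runs here. Run 1 held 10 cells labelled WT, run 2 held 7 cells labelled Prdm14+/- and 3 labelled WT, and run 3 held the 4 cells labelled KO and 6 labelled Prdm14+/-. All KO-labelled cells were thus in run 3 and no WT-labelled cell was, so the KO and WT labels cannot be told apart from the run.

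Values are the deposited log2 of dChip's model-based expression index (MBEI). Between 58.9% and 69.6% of probe sets were listed at 0 on an array, and 5752 to 8149 genes were above 6 on the log2 scale, an index of 64 that served as the floor: lower values were set to 6 and have no order. A gene listed at 0 need not be absent from the cell, since the ubiquitous enzyme gene *Hprt* was above the floor in only 20 of 30 cells (1 of 4 labelled KO, 9 of 13 labelled Prdm14+/- and 10 of 13 labelled WT). The *Prdm14* transcript ran against the labels, with floored means of 11.40 in cells labelled KO, 9.70 in cells labelled Prdm14+/- and 7.40 in cells labelled WT. The place of its probe set relative to the deleted part was not given in the sources used here. Every direction below follows the labels as deposited, and would turn round for KO against WT if those labels were exchanged. By these labels *Dppa3* ran opposite to the direction the study gives for it.

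POU5F1 (OCT4) is a POU-domain factor that, with SOX2 and NANOG, holds embryonic stem cells and the epiblast in the pluripotent state, and PGCs keep *Pou5f1* on after they leave the epiblast programme. NANOG is a homeodomain factor that falls in the late epiblast and returns in early PGCs, while SALL4 is a zinc-finger partner of both. UTF1 is a chromatin-associated protein of the epiblast and the germ line, and DPPA4 is a nuclear protein that works with DPPA2.

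POU5F1 and SOX2 bind DNA together where an octamer half-site lies beside a Sox half-site. The 250 bases before the RefSeq start of 3 of the 5 genes, *Nanog*, *Pou5f1* and *Utf1*, were searched on both strands for TTTGCAT, for ACAAT, and for the pair with 1 base between them. *Nanog* and *Pou5f1*, the pair of core factors, are shown from RefSeq's GRCm38.p6, both on the plus strand, with the combined match in capitals.
Nanog, chr6:122707239-122707488: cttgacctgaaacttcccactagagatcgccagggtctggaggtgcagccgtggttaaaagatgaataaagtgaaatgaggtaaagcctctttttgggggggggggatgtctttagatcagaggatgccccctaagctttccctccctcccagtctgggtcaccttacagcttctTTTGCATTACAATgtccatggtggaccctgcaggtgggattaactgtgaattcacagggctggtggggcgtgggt
Pou5f1, chr17:35505782-35506031: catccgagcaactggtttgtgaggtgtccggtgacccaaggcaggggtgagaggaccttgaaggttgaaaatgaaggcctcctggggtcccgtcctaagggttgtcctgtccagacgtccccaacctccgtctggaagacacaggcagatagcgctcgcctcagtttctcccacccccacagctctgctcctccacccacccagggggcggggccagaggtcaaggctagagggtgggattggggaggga
The *Nanog* window held the combined match at chr6:122707414-122707426, 75 to 63 bases before the start. RefSeq has a second start for *Nanog*, at chr6:122707565, whose window holds the same match. The *Pou5f1* window shown and the window of *Utf1* held neither half-site, and the window before a second *Pou5f1* start, at chr17:35508807, held the Sox half-site alone. TTTGCAT occurred in 4.12% and ACAAT in 27.7% of the 32851 windows of the table, and the pair with 1 base between in 8 windows (0.0244%). A match describes letters only, and binding was not measured.

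*Pou5f1* (1417945_at; GRCm38.p6 chr17:35506032-35510777) was above the floor in all 30 cells. The 4 cells labelled KO had 11.22, 11.46, 11.78 and 12.37. Cells labelled Prdm14+/- had 8.74 at the lowest, 11.72 at the median and 12.08 at the highest, and cells labelled WT had 10.44, 11.57 and 12.59. The KO-labelled values lay inside the WT-labelled range. *Pou5f1* averaged 11.71 ± 0.50 in cells labelled KO (SD between cells, n = 4), 11.20 ± 1.07 in cells labelled Prdm14+/- (n = 13) and 11.61 ± 0.62 in cells labelled WT (n = 13). The lower heterozygous mean came with 2 cells, number 78 of run 2 at 8.74 and number 118 of run 3 at 9.35, whereas the next lowest cell had 10.27. The annotation also holds 5 *Pou5f1*-related loci, whose transcripts this probe set may share.

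*Nanog* (1429388_at; chr6:122707489-122714633) was above the floor in 27 of 30 cells and listed at 0 in the other 3. All 4 cells labelled KO had it, at 9.18, 9.19, 10.35 and 11.25. Of the cells labelled Prdm14+/-, 11 of 13 had it, with a median of 10.40 and a highest value of 12.01, and of the cells labelled WT, 12 of 13 had it, with a median of 10.31 and a highest value of 11.85. The KO-labelled cells again fell within the range of the others. Apart from the zeros, the lowest value was 7.72, so the gene was either well above the floor or listed at 0. The cells at 0 were numbers 78 (run 2) and 100 (run 3), labelled Prdm14+/-, and number 50 (run 1), labelled WT, so each run held 1 of them. In these cells *Pou5f1* was 8.74, 11.55 and 11.95, and a listing of 0 for *Nanog* thus went with low *Pou5f1* in 1 cell only. The share of cells with *Nanog* had exact 95% intervals of 39.8% to 100% for KO-labelled, 54.6% to 98.1% for Prdm14+/-labelled and 64.0% to 99.8% for WT-labelled cells, for counting error only. The annotation holds 2 *Nanog* pseudogenes.

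*Sall4* (1424152_at; chr2:168748332-168767201) varied little between cells by its main probe set. It was above the floor in all 30 cells, with 12.35, 12.51, 12.59 and 12.76 in the 4 cells labelled KO. The lowest, median and highest values were 11.17, 12.58 and 13.04 in cells labelled Prdm14+/- and 11.88, 12.33 and 12.65 in cells labelled WT. It averaged 12.55 ± 0.17 in cells labelled KO (SD between cells, n = 4), 12.40 ± 0.49 in cells labelled Prdm14+/- (n = 13) and 12.31 ± 0.23 in cells labelled WT (n = 13). Its other probe set, 1424153_s_at, was weaker and less regular: 20 of 30 cells were above the floor, 7 were listed at 0 and the highest value was 11.11. Over the 30 cells the 2 probe sets had a correlation (r) of 0.11 on floored values.

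*Utf1* (1416899_at; chr7:139943856-139945112) was listed at 0 in 17 cells and lay between 7.31 and 10.87 in the other 13. Among cells labelled KO, 3 of 4 had it, at 7.36, 7.72 and 9.22. Among cells labelled Prdm14+/-, 7 of 13 had it (5 of 7 in run 2 and 2 of 6 in run 3), from 7.31 to 9.71. Among cells labelled WT, 3 of 13 had it (2 of 10 in run 1 and 1 of 3 in run 2), at 7.89, 9.30 and 10.87. The shares, 75%, 53.8% and 23.1% in that order, had exact 95% intervals of 19.4% to 99.4%, 25.1% to 80.8% and 5.04% to 53.8%, for counting error only and with no allowance for shared embryos. A weaker probe set, 1443786_at, passed the floor in 3 cells, all among the 13, and had r = 0.53 with the first on floored values (Spearman 0.55). In the other 10 of the 13 cells, the call of *Utf1* above the floor rests on 1 probe set. The remaining one, 1458333_x_at, was listed at 0 in every cell.

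*Dppa4* (1429597_at; chr16:48283735-48294292) was under the floor in all 30 cells. It was listed at 0 in 15 cells and reached at most 4.80. A count of 0 in 30 cells has an exact 95% interval of 0% to 11.6% for the share of cells above the floor, for counting error only. It sets no limit on cells that express the gene below the floor. Lying under the floor throughout was common on the arrays, since 27.1% of all genes passed the floor in no cell and 9.40% passed it in every cell. *Dppa2*, whose protein is the partner of DPPA4, was above the floor in 2 of 30 cells, both outside the KO label.

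**Figure D1:**
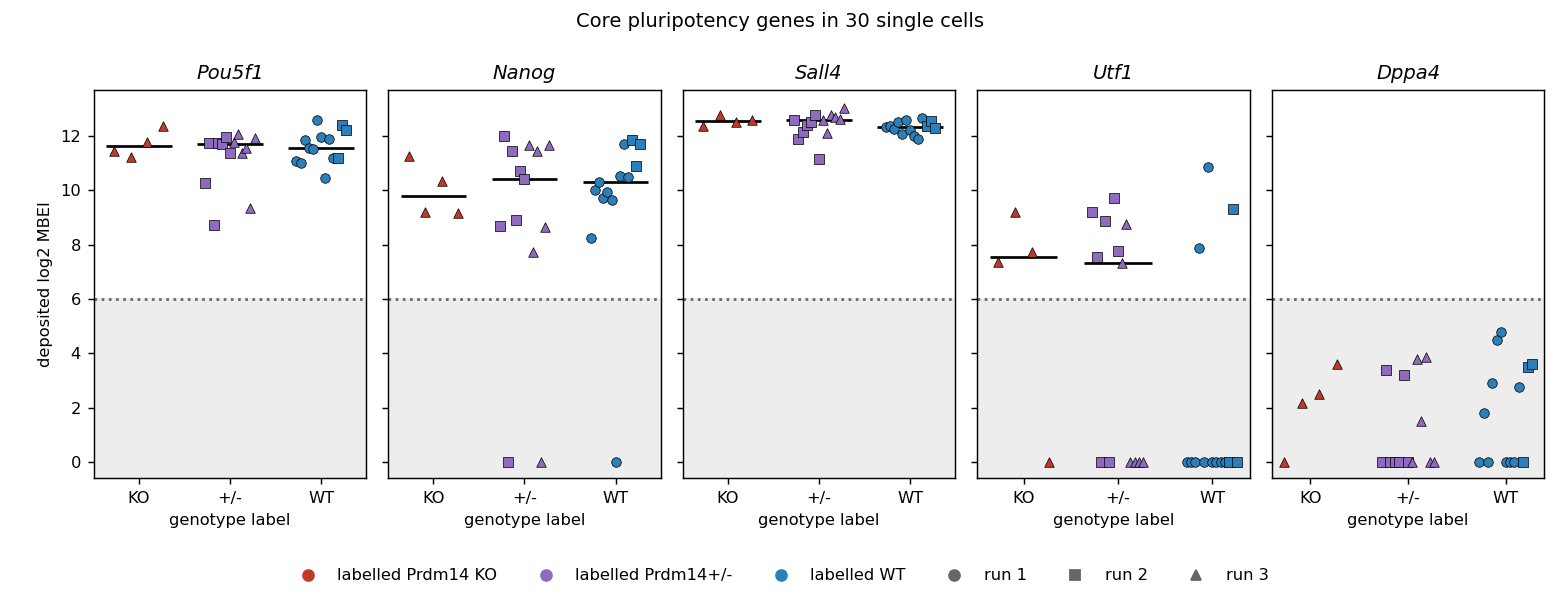
Deposited log2 MBEI of the main probe set of each gene (vertical axis) in each cell by genotype label (horizontal axis), with the marker giving the run, a bar at the median where it is above the floor, and the region under the floor of 6 in grey. *Pou5f1* and *Sall4* are above the floor in all 30 cells, *Nanog* in 27, *Utf1* in 13 and *Dppa4* in none.

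**Figure D2:**
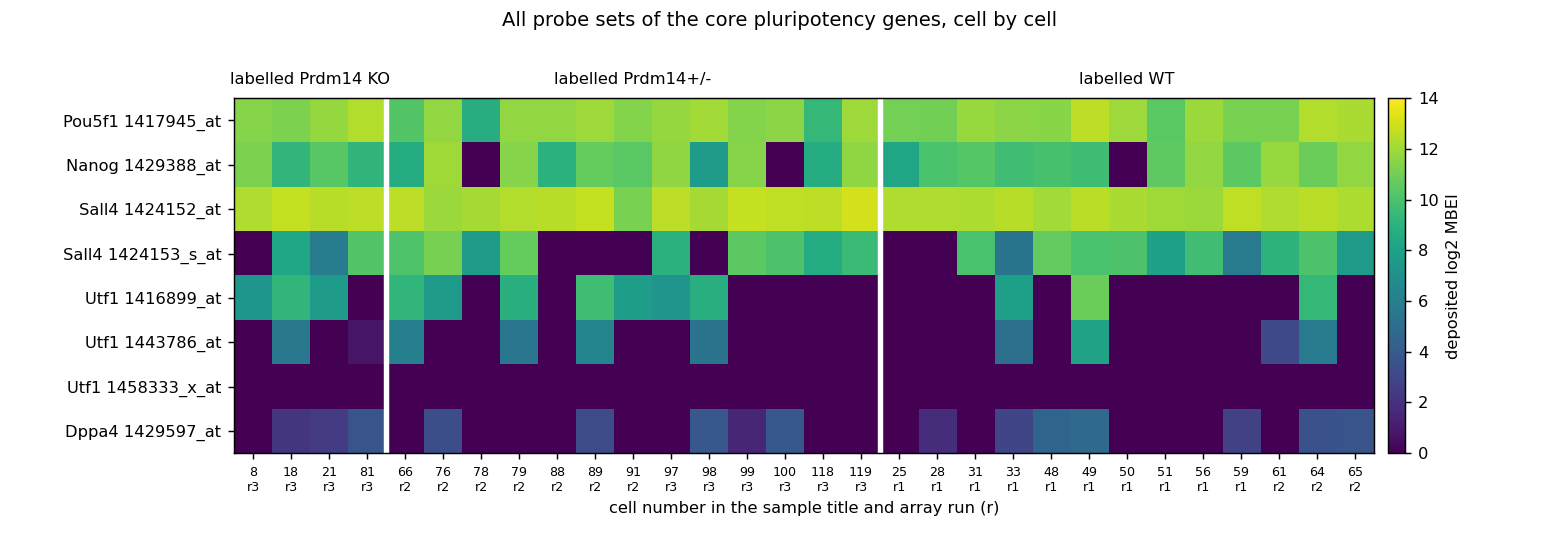
Deposited log2 MBEI (colour) of all 8 probe sets (rows) in the 30 cells (columns, with cell number and run), ordered by label and then by run. The cells where *Nanog* is listed at 0 are numbers 78, 100 and 50, and 8 cells have both of the first 2 probe sets of *Utf1* above 0.

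The study set *Prdm14* mutant PGCs beside those of the other genotypes, and over all cells the means of these genes differed by less than 1 between the labels. KO minus WT was 0.10 for *Pou5f1*, -0.09 for *Nanog*, 0.24 for *Sall4* and 0.80 for *Utf1*, as differences of mean floored log2 values. For *Pou5f1*, *Nanog* and *Utf1* these were smaller than the pooled SD between cells, which was 0.59, 1.48 and 1.54. Of all genes, 43.6%, 42.3%, 56.2% and 82.7% had a difference smaller in size than *Pou5f1*, *Nanog*, *Sall4* and *Utf1*. These shares include the 27.1% of genes under the floor in every cell, which could not differ and so count as smaller. Leaving out 1 KO-labelled cell turned the sign of *Pou5f1* (-0.12 without cell 81) and of *Nanog* (0.18 without cell 81 and 0.18 without cell 18). Without cell 8 the *Nanog* difference kept its sign and was -0.50. The *Utf1* difference was 0.25 without the KO-labelled cell 18 and 1.33 without the KO-labelled cell 81. For *Sall4* the pooled SD was 0.22, and the difference was slightly larger than it, although the cells of the labels overlapped. The sign for *Sall4* turned to -0.27 with run as a block, to -0.27 when its probe sets were averaged and to -0.49 when arrays were scaled to 1 75th percentile, a scaling that also took *Pou5f1* to -0.64. None of the 5 genes differed by 1 or more in either direction, and *Dppa4*, under the floor in every cell, could not. Of all 18194 genes 12.2% did, as did 4.79% of the 1711 genes above the floor in every cell. A count of 0 among so few genes is no departure from such shares, here and in the comparisons that follow.

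Between the KO and heterozygous labels, the differences were 0.50 for *Pou5f1*, 0.36 for *Nanog*, 0.15 for *Sall4* and 0.25 for *Utf1*. Within run 3, the one run that held both labels, they were 0.36, 0.47, -0.08 and 0.89 for the genes in the same order. None of the 5 genes passed 1 in either form, against 10.5% of all genes over all cells (3.21% of those always above the floor) and 14.2% within run 3. Single cells moved these values. Without cell 118, labelled Prdm14+/-, the *Pou5f1* difference in run 3 was -0.04, and without cell 100 the *Nanog* difference was -0.24. The *Utf1* difference there was 0.35 without the KO-labelled cell 18 and 1.42 without the KO-labelled cell 81.

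Between the heterozygous and WT labels, the differences were -0.40 for *Pou5f1*, -0.44 for *Nanog*, 0.09 for *Sall4* and 0.55 for *Utf1*. In the same order, 76.2%, 78.5%, 45.9% and 84.0% of all genes had a difference smaller in size, again with the 27.1% that could not differ. Without cell 78 the *Pou5f1* difference was -0.20. None passed 1, against 4.36% of all genes and 0.526% of those always above the floor. Within run 2 the same differences were -0.84, -1.75, -0.19 and 0.77. *Nanog* was there the 1 gene of 5 past 1 with all cells, when 14.3% of all genes were, with 7 cells labelled Prdm14+/- set against 3 labelled WT. The 3 WT-labelled cells had *Nanog* values of 10.88, 11.72 and 11.85, a span that cell 76, labelled Prdm14+/-, exceeded at 12.01. Without cell 78 the *Nanog* difference was -1.13 and that of *Pou5f1* was -0.45. Leaving out 1 WT-labelled cell took another gene past 1, with *Pou5f1* at -1.22 without cell 61 and *Utf1* at 1.87 without cell 64.

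With run as a block, KO minus WT came to -1.28 for *Nanog* and 1.67 for *Utf1*, so 2 of the 5 genes then passed 1. The share of all genes past 1 was not taken for that fit, so this count has nothing to stand beside. The block values link KO-labelled cells to WT-labelled cells only through the heterozygous cells of runs 2 and 3 and the 3 WT-labelled cells of run 2. Without these 3 cells the WT label shares no run with another label, so no block value can be taken. The plain KO minus WT difference for *Nanog*, without a block, was then 0.33, beside -0.09 with them.

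The genes differed in how much they varied from cell to cell. The SD over all 30 cells was 0.84 for *Pou5f1* and 0.36 for *Sall4*, beside a median of 0.64 over the 1711 genes above the floor in every cell. Of those 1711 genes, 75.1% had a smaller SD than *Pou5f1* and 20.05% had a smaller SD than *Sall4*. For *Nanog* and *Utf1* the floored SD was 1.75 and 1.48, values that include the step from the floor to the detected cells and so depend on where the floor is set. Taking out the mean of each label within each run left SDs of 0.86, 1.78, 0.34 and 1.49 for *Pou5f1*, *Nanog*, *Sall4* and *Utf1*, so the spread was between cells of 1 label and 1 run.

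*Pou5f1* and *Nanog* were not closely tied across cells. Their correlation over the 30 cells was 0.36 (Spearman 0.21), and it was 0.06 without the 2 cells farthest from the *Pou5f1* median, so it rests on those cells. By run it was -0.16 in run 1, 0.83 in run 2 and 0.14 in run 3, and in run 2 it was 0.50 without cell 78. *Pou5f1* and *Utf1* had r = 0.29 (0.38 after taking out label and run), and the other 4 pairs lay between -0.02 and 0.11. The median over the 6 pairs was 0.10. These correlations describe 30 cells that share runs, an amplification protocol and an unknown number of embryos.

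**Figure D3:**
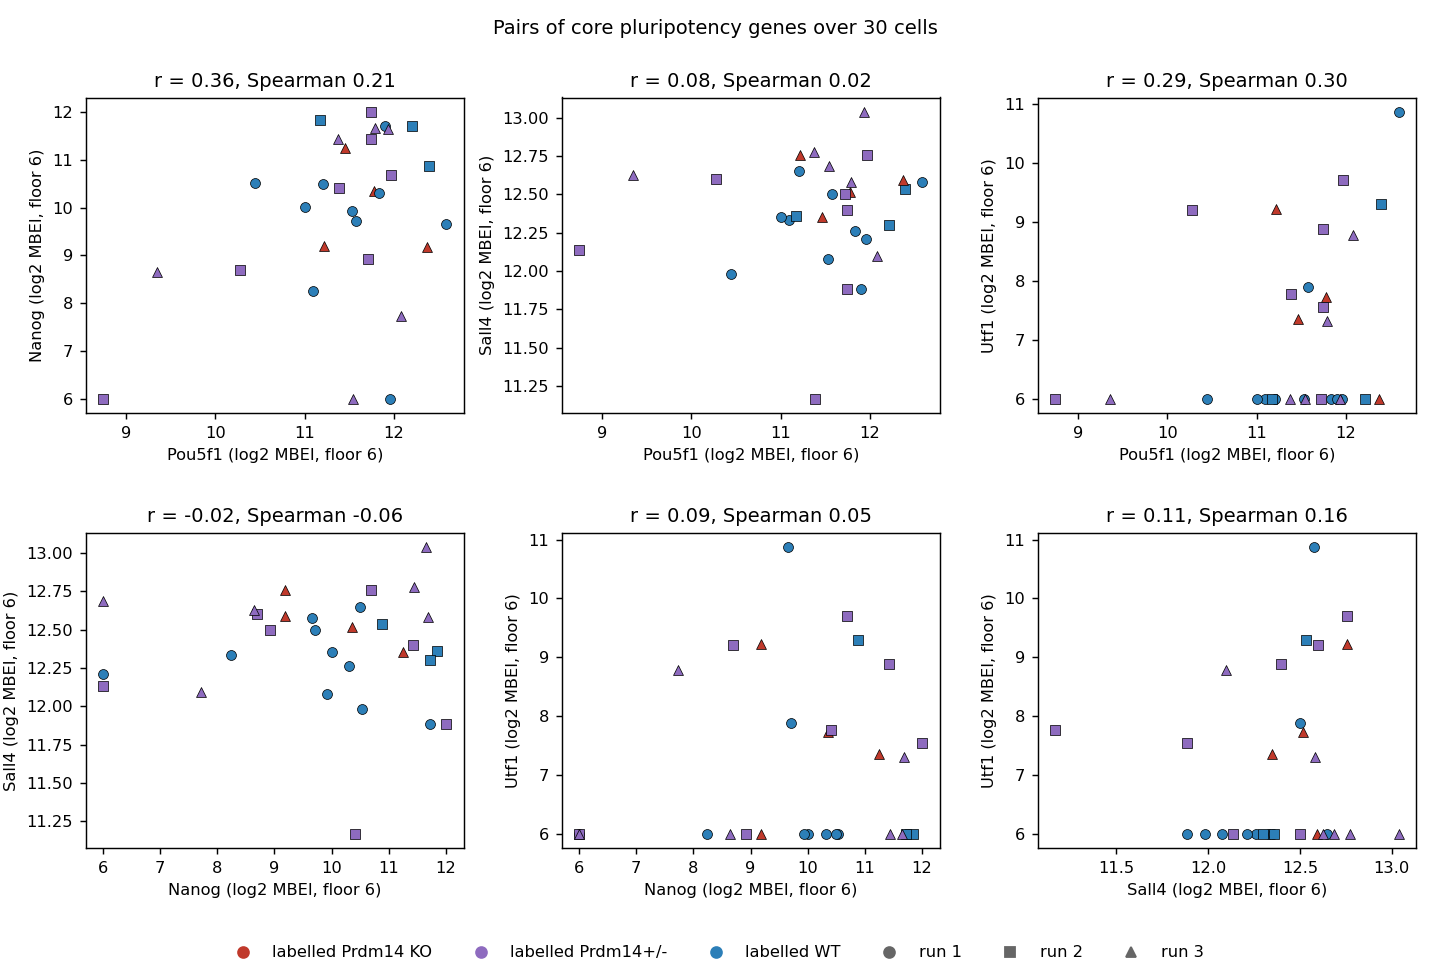
Floored log2 MBEI of each pair of the 4 genes that were above the floor in some cell (1 gene on each axis), over 30 cells coloured by label with the marker giving the run. The correlations run from -0.02 to 0.36, and the 2 cells low in *Pou5f1* stand to the left in the upper panels.

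The cells low in *Pou5f1* or without *Nanog* also had other germ cell genes at the floor. In cells 78 and 118, *Sox2*, the partner of POU5F1, and *Dppa3*, a maternal and germ cell factor, were also at the floor, yet *Sall4* was 12.13 and 12.63. *Dppa3* was at the floor in all 3 cells where *Nanog* was listed at 0, and in 3 of the 27 with *Nanog*. *Sox2* was above the floor in cells 50 and 100, at 10.65 and 7.37. On a list of 16 measured somatic mesoderm genes, the neighbouring cell type, the mean log2 level ranked cell 100 1st, cell 118 4th, cell 78 8th and cell 50 12th of 30, and on a list of 11 germ cell genes they ranked 28th, 26th, 29th and 23rd. Cell 61, labelled WT in run 2, ranked 3rd for somatic mesoderm genes and 30th for germ cell genes. Yet it had *Nanog* at 11.85 and *Pou5f1* at 11.17. The somatic mesoderm mean ran from 7.51 to 8.62 in cells labelled KO, 7.28 to 9.64 in cells labelled Prdm14+/- and 7.71 to 9.27 in cells labelled WT, with every measured gene of that list above the floor in at least 1 cell. The part of somatic cells in the low values was not tested.

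*Utf1* went with the early germ cell genes from cell to cell, given here as a description with no test. All 13 cells with *Utf1* also had *Prdm14*, while 9 cells had *Prdm14* alone and 8 had neither (r = 0.54). For *Dppa3* the same counts were 12 cells with both, 1 with *Utf1* alone, 12 with *Dppa3* alone and 5 with neither (r = 0.45), and for *Sox2* they were 11, 2, 9 and 8 (r = 0.49). The level of *Utf1* had r = 0.62 with the mean of 12 naive pluripotency genes and 0.59 with the mean of the germ cell genes, lists that both hold *Prdm14*. It had r = -0.41 with the mean of 12 primed epiblast genes and -0.53 with that of the somatic mesoderm genes. *Utf1* also had r = -0.58 with *Actb*, the cytoskeletal actin gene, so cells with *Utf1* tended to have lower *Actb* on the same array. Its r with the percentage of probe sets listed at 0 was 0.19. The part of array-wide level in these relations was not tested.

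**Figure D4:**
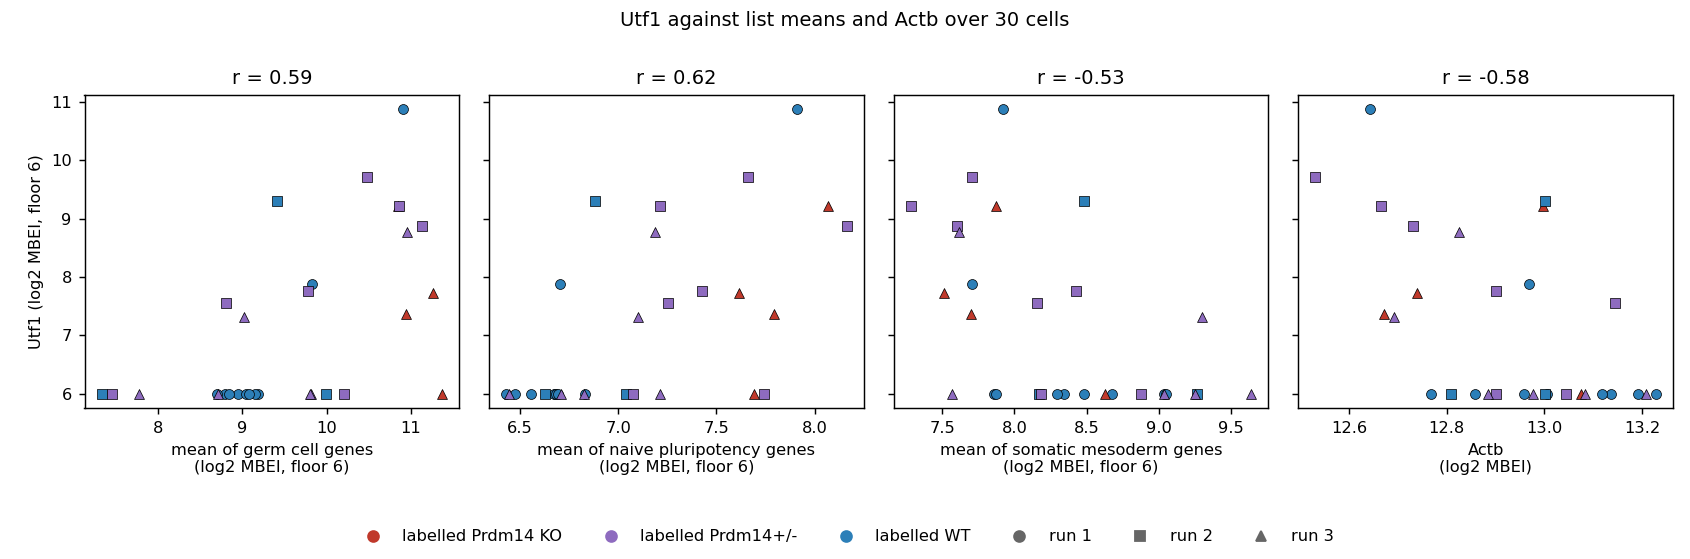
Floored log2 MBEI of *Utf1* (vertical axis) against the mean floored log2 MBEI of the germ cell, naive pluripotency and somatic mesoderm genes and against log2 MBEI of *Actb* (horizontal axes), over 30 cells coloured by label. *Utf1* is at the floor in 17 cells, and r is 0.59, 0.62, -0.53 and -0.58 from left to right.

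*Pou5f1* had its highest r among the 4 specifiers and partners with *Prdm1* (0.43), the germ cell specifier used to select the cells, and with *Sox2* (0.41, and 0.60 after taking out label and run). Over all genes above the floor in at least 20 cells, 5824 or 5825 candidates, the 3 nearest each gene were taken by r after removing label and run. For *Pou5f1* they were *Rhebl1* (0.77), the splicing regulator *Esrp1* (0.75) and *Zfp110* (0.70), but without the 2 farthest cells these were 0.33, 0.29 and 0.42. For *Nanog* they were *Emb*, which encodes the adhesion protein embigin, *1700019D03Rik* and *Epb41l4a*, all at 0.62 and at 0.57, 0.47 and 0.38 without the 2 farthest cells. For *Sall4* they were *Rtca* (0.73), *Il17rd* (0.73) and *Lamtor5* (0.71), at 0.50, 0.36 and 0.17 without those cells. For *Utf1* they were *Rbsn* (0.63), *Mfsd13a* (0.62) and *Cuedc2* (0.61), at 0.52, 0.53 and 0.63. The 95th percentile of all candidates was 0.32 to 0.37, but the neighbours are the highest of 5824 or 5825 values, so passing it follows from how they were picked. The 4 genes had no neighbour in common among these 12, which says little for lists of 3 genes taken from so many.

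The wider network gave the setting. Of 26 measured partners of the core factors, 5 were higher and 1 was lower by at least 1 in cells labelled KO than in cells labelled WT, with a median of 0.24 beside 0 for all genes, of which 12.2% were past 1 in either direction. The higher ones were *Sox2* (floored means of 12.48 and 7.58, a difference of 4.90), *Dppa3* (12.55 and 9.05, 3.51), *Dppa5a* (11.27 and 8.56, 2.70), *Gdf3* (9.53 and 7.31, 2.22) and the repressor gene *Rest* (11.80 and 10.06, 1.73). The lower one was *Nacc1* (6.59 and 8.01, -1.42), which encodes a NANOG-associated protein. Chromatin partners such as *Chd4* (0.28), *Wdr5* (0.06), *Kdm1a* (0.19) and *Trim28* (-0.30) differed by less than 1 and, like *Pou5f1* and *Sall4*, were above the floor in every cell. For *Trim28* the difference was larger than the pooled SD between cells, 0.15, and for *Chd4*, *Wdr5* and *Kdm1a* it was smaller.

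The same 12.2% stands beside the lists that follow. Of 12 naive pluripotency genes, 4 were higher, *Prdm14* itself included, and 1 was lower by at least 1 in cells labelled KO than in cells labelled WT (median 0.11), among them the transcription factor genes *Klf2* (10.52 and 6.34, a difference of 4.17) and *Esrrb* (8.20 and 6.19, 2.01). Of 12 primed epiblast genes, none was higher and 5 were lower (median -0.53), among them the DNA methyltransferase gene *Dnmt3b* (7.66 and 11.18, -3.52) and the activin antagonist gene *Fst* (6.64 and 9.68, -3.04). Of the 11 germ cell genes, 9 were higher and none was lower (median 1.77). The somatic mesoderm list had 1 gene higher and 5 lower of 16 (median -0.57). These lists and that of the partners were chosen with earlier results of these data known. *Prdm14* and *Dppa3* each stand in more than 1 list. The counts are therefore a description and no independent support beside the 12.2%. Named list genes were those with a difference of at least 2, so their size beside that of the core genes follows from how they were picked. These directions run with the *Prdm14* transcript, and between the KO and WT labels they cannot be told apart from run 3. Within run 3, KO minus heterozygous was 2.86 for *Sox2*, 3.53 for *Dppa3*, 1.33 for *Dppa5a* and 1.81 for *Gdf3*. It was 3.60 for *Klf2*, 1.49 for *Esrrb*, -2.82 for *Dnmt3b* and -2.14 for *Fst*. The part of the run in these directions was not tested.

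**Figure D5:**
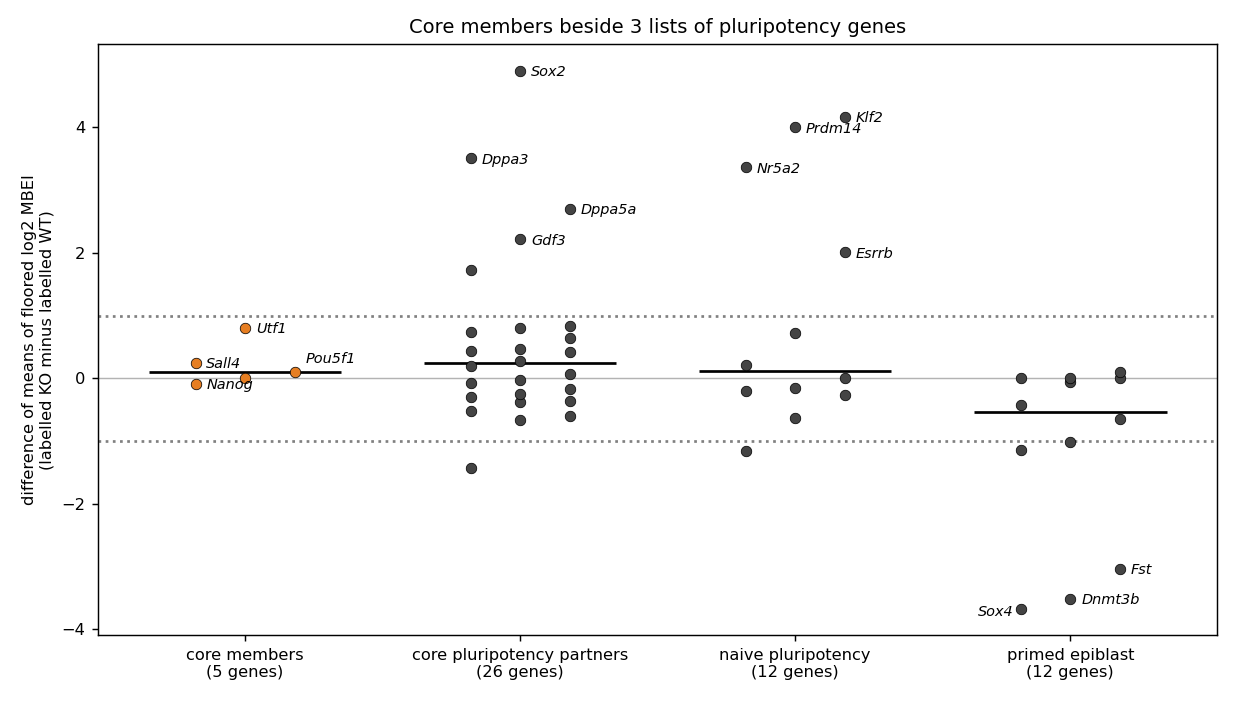
Difference of mean floored log2 MBEI between cells labelled KO and cells labelled WT (vertical axis) for the 5 core genes and for 26 partner, 12 naive and 12 primed genes, with a bar at each median, dotted lines at 1 and -1, and names where the difference is 2 or more or the gene is a core gene above the floor. The core genes lie between -0.09 and 0.80.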

How the data were processed

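Values were deposited by the authors as log2 expression indices (MBEI, from dChip 1.3 per the submitters' processing notes), 1 column for each of 30 cells. Array normalization by the authors was not given in the sources used here. No further scaling was applied. Of 45101 probe sets, 34958 have 1 gene symbol in the platform annotation, 932 have several and 9211 are not listed there, giving 18194 genes. The probe set with the highest mean stood for a gene. Values were floored at 6 (log2), and a mean difference of at least 1 was counted. Replicate numbers only name cells. No 2 arrays were identical, and r between arrays ran from 0.58 to 0.74. List genes with a difference of 2 or more, and the 3 genes nearest each member, were to be named; *Rest*, *Nacc1* and the chromatin partners were named after their values were seen. Some genes of the lists are not reported here. The endoderm, blood, trophoblast and housekeeping lists had medians of 0, 0, -0.39 and -0.11 for KO minus WT. Members and lists were chosen with earlier results of these data known. Alternatives were the floor (4 or 8), 3 scalings, averaged probe sets, medians, run as a block, and cells or runs left out. Statistics were checked on simulated data and computed with Python 3.11.15, NumPy 2.4.6 and pandas 2.3.3. Gene positions and promoter windows are from RefSeq on GRCm38.p6.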

Additional observations from a re-analysis of the deposited data

Results flagged for a closer look

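*Pou5f1* in cell 118, labelled Prdm14+/- in run 3, was lowest at 9.35, and its gap to the next cell was 0.744 of the range of the 6 cells, all of them above the floor. In sets mostly at the floor, 2 further gaps were large only because low values were set to 6. *Utf1* (1416899_at) in cell 49, labelled WT in run 1, was highest at 10.87 with a gap of 0.612 of the range of 10 cells, against 0.274 in the deposited values. *Utf1* (1443786_at) in cell 89, labelled Prdm14+/- in run 2, was highest at 6.32 with a gap of 0.939 of the range of 7 cells, against 0.0479 in the deposited values, so these cells are not read as standing apart. In all, 21 sets of 4 to 10 cells of 1 label and 1 run were examined, and chance marks about 1 set in 20 where values are not tied at a floor. The floor also made gaps smaller. *Nanog* in cells 78, 100 and 50, listed at 0, had deposited gaps of 0.724, 0.661 and 0.704. *Sall4* (1424153_s_at) in cell 98, also at 0, had 0.822. Each was past the size that marks a cell, and none was on floored values. Values under the floor have no order, so these cells are likewise not read as standing apart.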

How the results depend on the processing

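The pooled SD between cells exceeds most differences between labels, so staying within it says little about sign: of 144 alternative values for *Pou5f1*, *Nanog*, *Sall4* and *Utf1*, 29 had the opposite sign to the reported value (6, 8, 11 and 4 of 36 each). When arrays were scaled to 1 75th percentile, which lies among weak values, KO minus WT was -0.64 for *Pou5f1* and -0.49 for *Sall4*, and KO minus heterozygous was -0.36 for *Sall4*. With probe sets averaged, *Sall4* was -0.27 (KO minus WT) and -0.40 (KO minus heterozygous), and with run as a block it was -0.27 (KO minus WT). With the floor at 4, *Dppa4* was -0.10 in both comparisons with WT. The count of genes past 1 for KO minus WT was 0, and it was 1 with the floor at 4 (*Utf1*, 1.84), 1 with medians (*Utf1*, 1.54) and 2 with run as a block. It ran from 0 to 1 when each KO-labelled cell was left out, with *Utf1* at 1.33 without cell 81 (KO replicate 4). For heterozygous minus WT it was 0, and it was 1 with the floor at 4 (*Utf1*, 1.17), with medians (*Utf1*, 1.31), with run as a block and within run 2. Except within run 2, no share of all genes past 1 was taken for these other settings. The median pairwise correlation was 0.22 within run 2. With the floor at 8, *Utf1* was above it in 1 of 4 cells labelled KO, 4 of 13 labelled Prdm14+/- and 2 of 13 labelled WT, so the order of the shares by label did not hold. The SD between cells was 2.24 for *Nanog* and 2.41 for *Utf1* with the floor at 4, and 1.34 and 0.69 with the floor at 8. The cause of these changes was not tested. Leaving out single heterozygous or WT-labelled cells from a difference or single cells from the run 2 correlation, leaving out the WT-labelled cells of run 2, and the *Utf1* counts under other settings were added after the data were seen. *Dppa4* has no correlation, so 6 of 10 pairs have a value. Precision is limited by 4 KO-labelled cells, unnamed embryos and the confounding of label with run.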
